A study of Mus musculus with 4 samples.

Results

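The cerebellar granule cell genes described here are 32 genes: 14 transcription factors of the granule lineage and 18 genes of granule neuron maturation and synaptic function. They were chosen by symbol for their known roles, and every non-control probe whose RefSeq accession maps to 1 of them was taken, which gave 62 probes. The array holds probes for 22911 genes that could be named in this way. All 62 probes were well above background on all 4 arrays, so no member was lost to the filter on dim probes. The rule itself used no measured value, but the member genes were chosen with earlier results of these data known.

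RNA came from the cerebellum of C57BL/6 mice at postnatal day 28. The 2 control samples were homozygous for floxed Derlin-2 (Derlin-2flox/flox). The 2 KO samples came from intercrosses of Derl2flox/flox mice with mice that express Cre recombinase from a nestin promoter, a driver of neural stem and precursor cells rather than of granule cells alone. Floxed Derl2 is therefore shared by both groups, and the labels do not say whether controls carried Cre, which sex the animals had, or whether a sample is 1 mouse or a pool. P-values thus measure the spread between these 4 samples. Derl2 encodes a membrane protein of the endoplasmic reticulum that helps to remove misfolded proteins. Its brighter probe, A_51_P498831, read 2.13 and 2.20 in control and 0.81 and 0.70 in KO, which left 37.6% of the control signal. Control replicate 2 stood apart from the other arrays in choroid plexus genes, whose summed signal relative to the 75th percentile was 140.3 there and between 7.48 and 7.93 elsewhere. Control replicate 1 had a patch of raised local background that covered 1350 spots, among them those of 3 member probes. Values are log2 of the Cy3 signal minus the 75th percentile of the array, called the log2 signal below, so that 1 unit is a 2-fold difference.

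Granule cells are small glutamatergic neurons that make up most of the neurons of the cerebellum. Their precursors arise in the rhombic lip, divide in the external granular layer, move inward along Bergmann glia and send parallel fibres to the dendrites of Purkinje cells. Transcription factors such as Pax6 and the Zic family act early, NeuroD and NFI factors drive differentiation, and cerebellins, vesicle proteins and ion channels mark the mature neuron. The postnatal day sampled lies after the external granular layer has disappeared. Atoh1, the defining factor of dividing granule precursors, was well above background on 0 of the 4 arrays. The forebrain factor Emx1 and the caudal hindbrain genes Hoxa5 and Hoxb5 were also well above background on 0 arrays. Because whole tissue was measured, fewer granule cells and less RNA per cell cannot be told apart.

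Across these genes the KO and control cerebella differed little. With each gene read on its brightest probe, 0 of 32 passed a limma adjusted p of 0.05, against 0% of all 37516 probes tested. The lowest adjusted value of the 32 was 0.396. Derl2 itself did not pass either, with a limma adjusted p of 0.273 on both of its probes. This threshold thus misses a loss to 37.6% of the control signal, and the count of 0 does not show that members are unchanged. Without adjustment, 0 of 32 had p under 0.05 as well, against 8.81% of all genes read in this way. That count was 2 (Meis1 and Calb2) under spike-in scaling, under normexp background correction and under an intensity trend in the variances. It was 2 (Cadps2 and Calb2) without control replicate 2, and 1 with the replicate number as a block (Calb2) and without KO replicate 2 (Bdnf). Over all 62 probes, 2 had an unadjusted p under 0.05 with KO higher, against 8.84% of all probes, and 0 with KO lower, against 5.2%. The log2 differences of KO minus control ran from −0.20 for Kcnd2 to 0.40 for Calb2. Of the 32 genes, 19 were on the positive side, against 36.1% of all genes, and 13 on the negative. That split depended on the scaling between arrays: it was 23 to 9 under quantile normalization and 28 to 4 under spike-in scaling. It was 18 to 14 without control replicate 1 and 22 to 10 without control replicate 2, and 0 genes passed the adjusted threshold in either case. Groups did not overlap, with KO higher, for 6 genes, against 13.8% of all genes, and with KO lower for 6 genes, against 32.1%. A difference of at least 0.3 in either direction was measured for 2 of 32, against 18% of all genes; both, Calb2 and Cadps2, also had groups that did not overlap, against 14%. The 95% interval of the difference lay within a 1.5-fold change either way for 27 of 32 genes, against 65.1% of all genes. The median difference was 0.073 over the 32 genes and −0.064 over all genes.

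**Figure D1:**
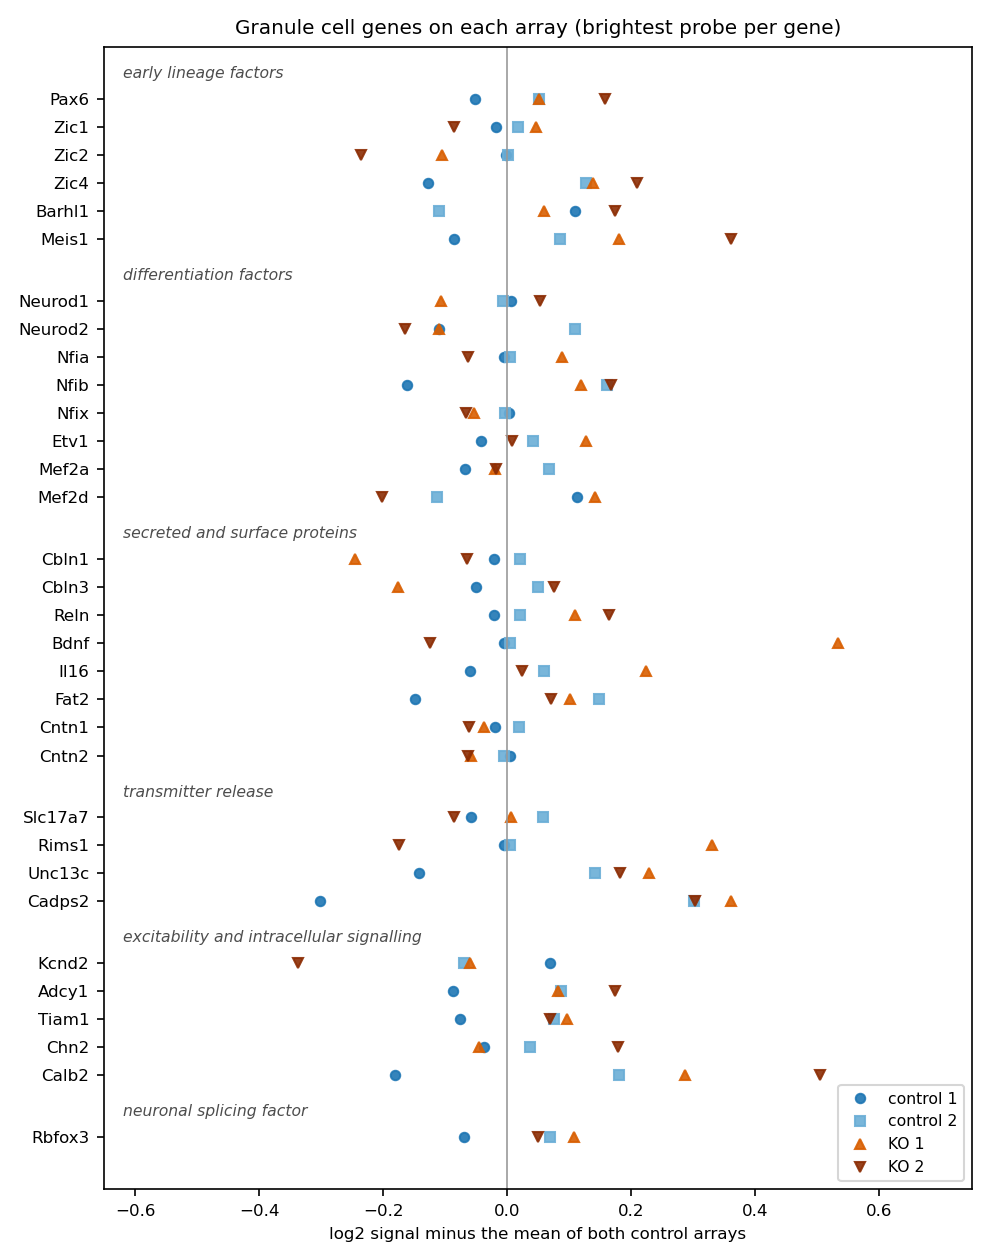
Log2 signal of each granule cell gene on each array, as the difference from the mean of both control arrays (x axis), with genes on the y axis grouped by role. Points are single arrays; Bdnf and Rims1 stand apart on KO replicate 1, while Cadps2 is low on control replicate 1 alone.

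Among the early lineage factors, Meis1 had the largest difference. Meis1 is a homeodomain factor kept from the precursor into the granule neuron. Its brightest probe read 3.42 and 3.59 in control and 3.68 and 3.86 in KO, which differ by 0.27 (SE 0.13; limma adjusted p 0.422). Both KO arrays lay above both control arrays, and the other Meis1 probe showed the same order. That probe read −1.56 and −1.43 in control and −1.25 and −1.16 in KO, a difference of 0.29 (SE 0.11; limma adjusted p 0.361). The gap between the nearest control and KO arrays was smaller than that between the 2 controls or the 2 KO arrays on the brightest probe, so the separation is narrow.

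Promoter sequences are shown for Meis1, as the lineage factor with the largest difference on its brightest probe, and for Cbln3, a gene largely restricted to granule cells whose window holds the letters of a MEIS site. They are from RefSeq (GRCm38.p6), cover the 250 bases before the annotated start and are written in the direction of the gene. Both genes lie on the minus strand. Capitals mark CCGGAAGT, the core of an ETS factor site such as that of the member Etv1, in Meis1 (reverse strand), and TGACAG, the MEIS site, in Cbln3 (reverse strand).
Meis1, chr11:19018970-19019219: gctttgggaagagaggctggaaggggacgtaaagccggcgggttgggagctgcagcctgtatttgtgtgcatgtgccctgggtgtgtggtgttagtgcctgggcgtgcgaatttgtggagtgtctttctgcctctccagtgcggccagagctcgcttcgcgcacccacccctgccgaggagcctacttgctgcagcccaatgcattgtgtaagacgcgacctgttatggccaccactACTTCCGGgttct
Cbln3, chr14:55884257-55884506: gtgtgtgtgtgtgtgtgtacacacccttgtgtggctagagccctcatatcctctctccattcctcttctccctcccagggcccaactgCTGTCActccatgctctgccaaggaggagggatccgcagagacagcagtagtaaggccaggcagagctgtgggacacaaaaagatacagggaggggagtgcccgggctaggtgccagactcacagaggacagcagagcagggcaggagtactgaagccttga

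The table of promoters held 48 windows for 28 of the 32 genes. On either strand, TGACAG was in 8 of the 48 (16.7%), against 15.9% of all 32851 windows of this length. The E-boxes CAGATG and CAGCTG, which NeuroD proteins can bind, were each in 8 windows (16.7%), against 14.4% and 13% of all windows. CCGGAAGT was in 1 window (2.08%) against 2.88%, and a full palindromic NFI site and a MEF2 site were in 0 windows, against 0.0365% and 0.103%. The shares were within a few windows of those of all promoters, and a match of letters is a description of the sequence, not of binding.

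The Zic genes, zinc finger factors of the granule lineage, had small differences of either sign, and each 95% interval on the brightest probe included 0. Zic1 read 7.03 and 7.07 in control and 7.10 and 6.97 in KO, a difference of −0.019 (SE 0.11), and its groups overlapped. Zic4, which lies next to Zic1 in the genome, read 1.60 and 1.86 in control and 1.87 and 1.94 in KO, a difference of 0.17 (SE 0.13). The KO arrays were above both controls for Zic4, but control replicate 2 was next to KO replicate 1. Without control replicate 1 the difference was 0.047, without control replicate 2 it was 0.30, and the other 2 Zic4 probes differed by −0.0078 and −0.0086. Zic2 read 2.14 on both control arrays and 2.03 and 1.90 in KO, a difference of −0.17 (SE 0.11; limma adjusted p 0.512). Its second probe also placed both KO arrays lower, by 0.047 on average.

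Pax6, a paired-box factor needed for granule cell migration and axon growth, read 2.52 and 2.63 in control and 2.63 and 2.74 in KO on its brightest probe. The difference was 0.10 (SE 0.11), and the groups overlapped. Barhl1, a homeodomain factor of migrating granule cells, differed by 0.12 (SE 0.13) on the brighter probe and by −0.061 (SE 0.13) on the other, and overlapped on both. The brighter gave 0.23 without control replicate 1 and 0.0074 without control replicate 2.

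The differentiation factors differed little. Over 8 genes the differences ran from −0.14 to 0.14 with a median of −0.023, and all 8 intervals lay within 1.5-fold. Neurod1, a basic helix-loop-helix factor required for granule neuron survival, read 5.36 and 5.35 in control and 5.25 and 5.41 in KO. Its difference of −0.027 had a 95% interval from −0.32 to 0.27. Neurod2, its close relative, read 4.16 and 4.38 in control and 4.16 and 4.11 in KO. That is a difference of −0.14 (SE 0.12; limma adjusted p 0.634), with control replicate 1 barely above KO replicate 1. It was −0.25 without control replicate 1 and −0.028 without control replicate 2.

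The NFI factors switch on late granule genes such as the GABA-A receptor subunit gene Gabra6. Nfia differed by 0.012 (SE 0.11), Nfib by 0.14 (SE 0.15) and Nfix by −0.060 (SE 0.097) on their brightest probes. For Nfix, all 3 probes had both KO arrays below both controls; the brightest read 3.65 and 3.65 in control and 3.59 and 3.58 in KO. For Nfib, control replicate 1 read 4.89 and the other 3 arrays lay between 5.17 and 5.22. The Nfib difference was −0.018 without that array and 0.31 without control replicate 2. Etv1, an ETS factor induced by activity in maturing granule cells, differed by 0.068 (SE 0.11). The MEF2 factors, which shape synapse number with activity, differed by −0.019 (SE 0.11) for Mef2a and −0.030 (SE 0.17) for Mef2d. Groups overlapped for Etv1, Mef2a and Mef2d.

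Of the secreted and surface proteins, the cerebellins are the best known granule cell products. Cbln1 is released from parallel fibres and maintains their synapses with Purkinje cells, and Cbln3 is secreted together with Cbln1. Cbln1 read 7.32 and 7.36 in control and 7.09 and 7.27 in KO, a difference of −0.15 (SE 0.12; limma adjusted p 0.573). Both KO arrays were lower, but KO replicate 2 was nearer to the controls than to KO replicate 1. Cbln3 gave different values on its 2 probes, both listed for the same transcript. The brighter read 1.18 and 1.28 in control and 1.05 and 1.31 in KO, a difference of −0.050 (SE 0.13). The other probe, A_51_P273888, read 1.26 and 1.24 in control and 0.75 and 1.03 in KO, a difference of −0.36 (SE 0.14; limma adjusted p 0.363). On all 3 cerebellin probes KO replicate 1 was the lowest array.

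Reelin is secreted by granule cells and guides the placement of Purkinje cells. Reln read 4.71 and 4.75 in control and 4.84 and 4.90 in KO, a difference of 0.14 (SE 0.099; limma adjusted p 0.561), and its dimmer probe differed by 0.15 with groups that also did not overlap. Bdnf, a neurotrophin that promotes granule cell migration, read 0.57 and 0.58 in control and 1.11 and 0.45 in KO. KO replicate 1 alone was high, the KO arrays lay on either side of the controls, and the difference was 0.20 (SE 0.24). Il16, whose neuronal form is made in granule cells, differed by 0.12 (SE 0.12), and its groups overlapped. Fat2, a giant cadherin of parallel fibres, differed by 0.087 (SE 0.14), with control replicate 1 the lowest array at 4.92 and control replicate 2 the highest at 5.21.

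The contactins are adhesion proteins of granule cell axons, Cntn2 early and Cntn1 later in axon growth. Their arrays agreed closely: Cntn1 read 6.03 and 6.06 in control and 6.01 and 5.98 in KO, and Cntn2 read 3.21 and 3.21 in control and 3.15 and 3.15 in KO. The differences were −0.050 (SE 0.098) and −0.060 (SE 0.097), which left 96.6% and 95.9% of the control signal. Both turned sign under spike-in scaling, to 0.038 and 0.028.

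For transmitter release, Slc17a7, which encodes the vesicular glutamate transporter VGLUT1 of parallel fibres, read 2.19 and 2.31 in control and 2.26 and 2.16 in KO. The difference was −0.040 (SE 0.11), with a 95% interval from −0.33 to 0.25. Unc13c, a vesicle priming protein enriched in granule cells, read 3.05 and 3.34 in control and 3.42 and 3.38 in KO, a difference of 0.21 (SE 0.14; limma adjusted p 0.534). Only control replicate 1 was clearly apart: without it the difference was 0.064, and without control replicate 2 it was 0.35. The second Unc13c probe differed by 0.060 with overlapping groups. Rims1, an active zone scaffold, read 0.43 and 0.44 in control and 0.77 and 0.26 in KO, a difference of 0.078 (SE 0.20), with the KO arrays on either side of the controls.

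Cadps2, which helps to release dense-core vesicles that carry neurotrophins, had the second largest difference on a brightest probe. It read 4.54 and 5.14 in control and 5.20 and 5.14 in KO, a difference of 0.33 (SE 0.23; limma adjusted p 0.542). Control replicate 1 was the array apart, and its spot for this probe lay on a patch of raised local background; without control replicate 1 the difference was 0.031, and without control replicate 2 it was 0.63. Another Cadps2 probe, free of the patch, read 0.67 and 0.83 in control and 1.17 and 0.88 in KO, a difference of 0.27 (SE 0.15; limma adjusted p 0.470). One more probe each of Cadps2 and Rims1 also had a spot on that patch. They read −0.69 and 0.22 on control replicate 1, against −5.76 and −3.03 on control replicate 2, and differed by −2.17 and −1.74. Without control replicate 1 the Cadps2 probe differed by 0.37 and the Rims1 probe by −0.12. Without control replicate 2 they differed by −4.70 and −3.37.

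Calb2 encodes calretinin, a calcium-binding protein of granule cells that is also abundant in unipolar brush cells, the other glutamatergic interneuron of the granular layer. It had the largest difference of the 32. The brighter probe read 1.56 and 1.92 in control and 2.03 and 2.25 in KO, a difference of 0.40 (SE 0.17; limma adjusted p 0.396) and 132% of the control signal. The other probe, for the same transcript, read 0.75 and 1.07 in control and 1.26 and 1.44 in KO, a difference of 0.44 (SE 0.16; limma adjusted p 0.344). On both probes the arrays stood in the same order, and the step between the 2 control arrays was larger than the step from control replicate 2 to KO replicate 1. Leaving out control replicate 1 gave 0.22 on the brighter probe, and leaving out control replicate 2 gave 0.58. Eomes, the defining factor of unipolar brush cells, read −0.18 and −0.29 in control and 0.81 and −0.30 in KO. It was thus high on KO replicate 1, whereas Calb2 was highest on KO replicate 2. Over the 5 unipolar brush cell genes, all measured, the summed signal relative to the 75th percentile was 37.4 and 38.5 in control and 39.2 and 33.2 in KO; its part in the Calb2 values was not tested.

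Of the other signalling members, Kcnd2 had the most negative difference of the 32 genes. Kcnd2, a subunit of the A-type potassium channel, read 5.14 and 5.0 in control and 5.01 and 4.73 in KO, a difference of −0.20 (SE 0.14; limma adjusted p 0.559), with KO replicate 2 alone low. Adcy1, a calcium-stimulated adenylyl cyclase, differed by 0.13 (SE 0.12), or by 0.041 without control replicate 1 and 0.21 without control replicate 2. Tiam1 and Chn2, which activate and restrain the small GTPase Rac, differed by 0.082 (SE 0.11) and 0.067 (SE 0.13). Groups overlapped for each of these 4 genes.

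Rbfox3 encodes NeuN, a splicing factor used as a marker of mature neurons and strong in granule cells. Its brightest probe read 6.74 and 6.88 in control and 6.92 and 6.86 in KO, a difference of 0.079 (SE 0.11), and its second probe differed by −0.0020 (SE 0.12). A further probe, A_66_P102976, read −0.47 and −0.57 in control and −0.012 and 0.098 in KO, a difference of 0.56 (SE 0.11; limma unadjusted p 0.0054, adjusted p 0.273). It had the smallest p of the 62 probes and is listed for the same transcript as the brightest, which differed by 0.079; the cause was not tested.

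**Figure D2:**
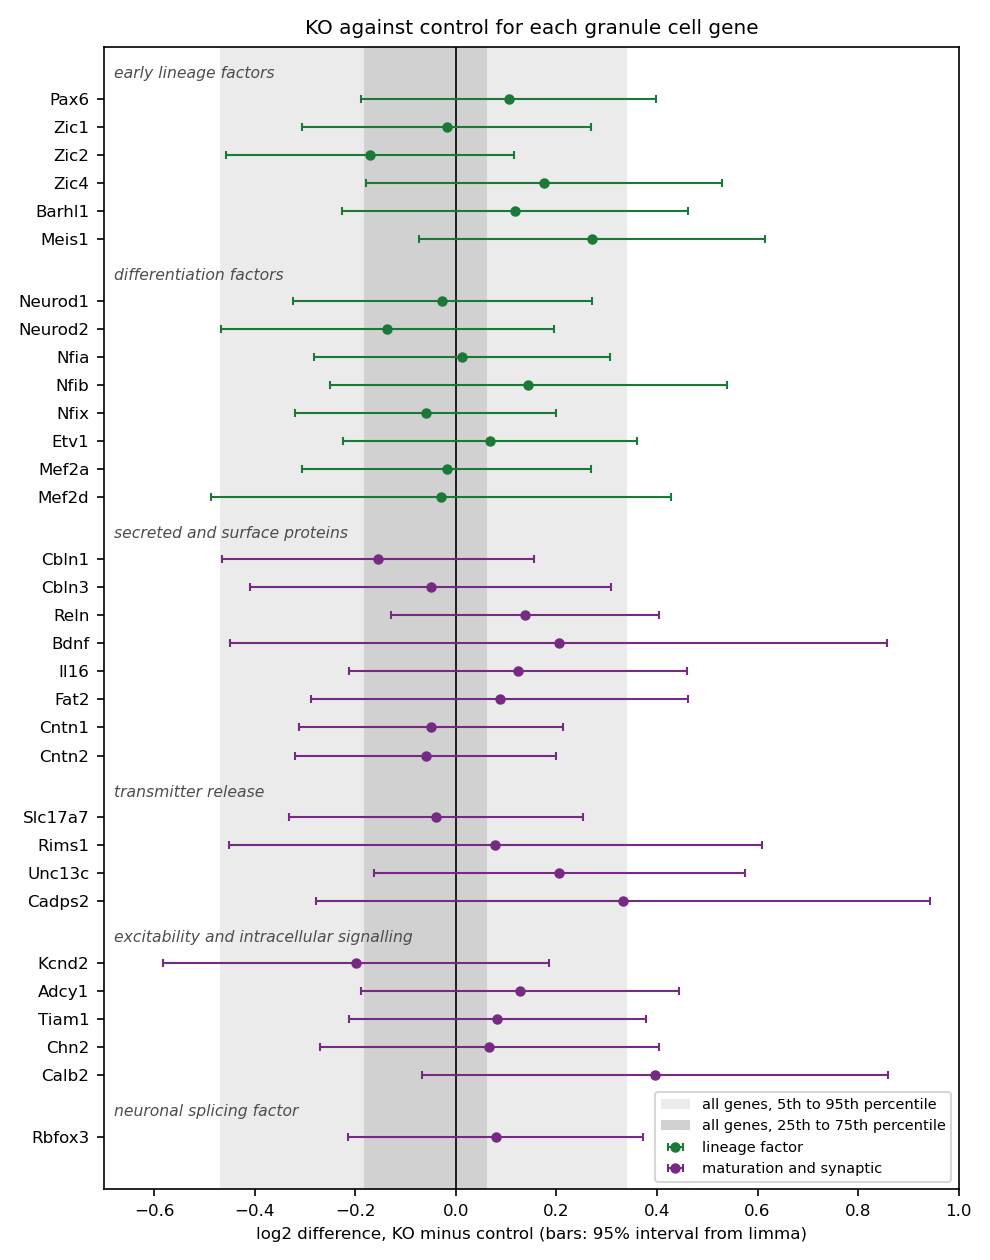
Log2 difference of KO minus control (x axis) with its 95% interval from limma for each granule cell gene (y axis, 2 arrays per group), lineage factors in green and maturation and synaptic genes in purple. Grey bands give the 25th to 75th (−0.18 to 0.061) and 5th to 95th (−0.47 to 0.34) percentiles over all 16524 genes; Calb2 alone lies to the right of the outer band, and every interval includes 0.

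Lineage factors and maturation genes were then set side by side. The median difference was −0.0032 over the 14 lineage factors, of which 7 were on the positive side, and 0.081 over the 18 maturation and synaptic genes, of which 12 were. Of all genes, 36.1% were on the positive side. For the lineage factors the medians of the 4 KO and control pairings were 0.057 and 0.048 against control replicate 1 and 0.0053 and −0.049 against control replicate 2. For maturation and synaptic genes they were 0.17 and 0.12 against control replicate 1 and 0.015 and −0.028 against control replicate 2. The positive median of the maturation genes was thus seen mainly against control replicate 1. It was 0.15 without control replicate 2 and 0.020 without control replicate 1. Over all genes the 4 pairs gave medians between −0.065 and −0.055. Between the controls themselves, 16 of 18 maturation and synaptic genes and 10 of 14 lineage factors read higher on replicate 2, against 52% of all genes. The median absolute step between the 2 controls was 0.12 for the 32 genes, and the median absolute difference of KO from control was 0.096. Over all genes these were 0.115 and 0.136. The step is between single arrays and the difference between means of 2 arrays, which vary less, so the 2 values are not directly comparable.

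The 30 probes that are not the brightest of their gene were compared with those that are. Both KO arrays were higher on 11 of the 30, against 17.7% of all such probes, and lower on 5, against 27%. Of the 19 probes of these genes below the 75th percentile, 8 were higher without overlap and 0 were lower, where all probes below it gave 26.3% and 21.7%. The dimmer Pax6 probe A_52_P565559 differed by 0.25 (SE 0.10), the dimmer Nfib probe by 0.29 (SE 0.11) and the dimmest Nfia probe by 0.38 (SE 0.16), where the brightest probes gave 0.10, 0.14 and 0.012. Not all dimmer probes were higher. The dimmest Pax6 probe differed by −0.032 (SE 0.15) and the dimmer Barhl1 probe by −0.061 (SE 0.13), both with overlapping groups. Of the 30 probes, 17 were on the positive side, against 43% of all such probes, and 13 on the negative. Meis1 and Calb2 differed by 0.27 or more on every probe.

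**Figure D3:**
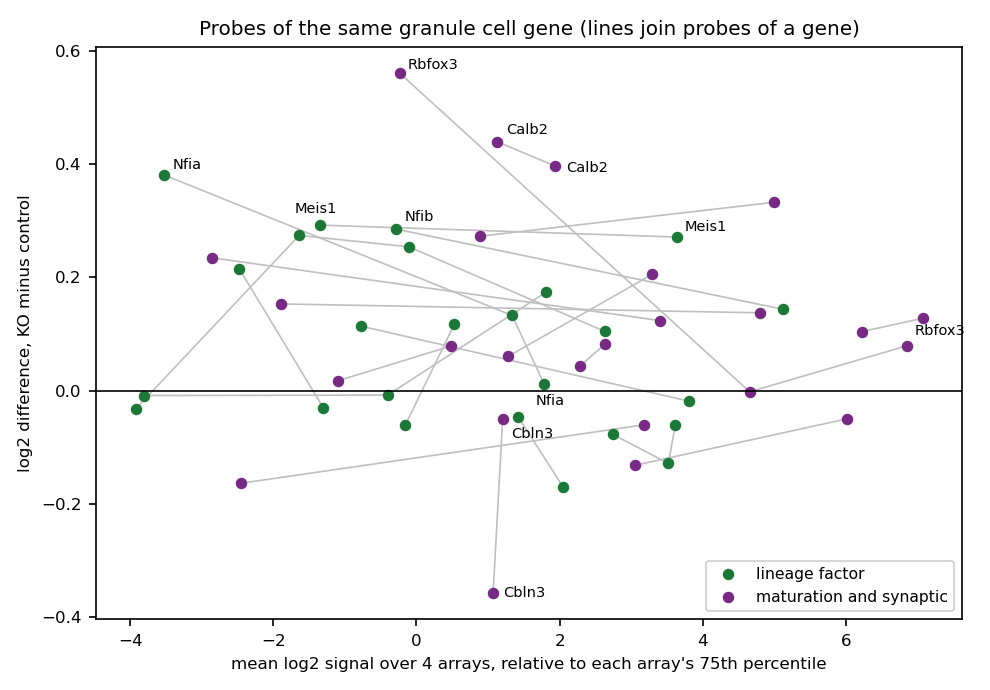
Mean log2 signal over the 4 arrays (x axis) and log2 difference of KO minus control (y axis) for the probes of the 22 genes with more than 1 probe; lines join the probes of a gene. The probes of Calb2 and of Meis1 lie at like heights, whereas those of Rbfox3, Nfia and Cbln3 do not; 2 probes of Cadps2 and Rims1 with differences of −2.17 and −1.74 are left out of the drawing.

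Further granule cell genes were read from lists of related genes. Of 12 other genes of mature granule neurons, 0 had an unadjusted p under 0.05, and the median difference was −0.035. Gabra6 read 5.23 and 5.19 in control and 5.12 and 5.10 in KO, and Gabrd, the partner subunit in extrasynaptic GABA-A receptors, read 5.21 and 5.24 in control and 5.15 and 5.10 in KO. Both differed by −0.10, with SEs of 0.098 and 0.099, and in both genes the groups did not overlap. Over the 12 genes, groups did not overlap for 4 with KO lower, against 32.1% of all genes, and for 2 with KO higher, against 13.8%. Of 12 genes of granule precursors and the cell cycle, 11 were measured, with a median of −0.019. Dcx, a microtubule protein of migrating neurons, had an unadjusted p under 0.05: it read −2.68 and −2.72 in control and −2.27 and −2.43 in KO, a difference of 0.35 (SE 0.11; limma adjusted p 0.325). The proliferation marker Mki67 differed by −0.12 (SE 0.32), with overlapping groups.

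Among 16 partners of the member proteins, 13 were on the negative side and 3 on the positive, against 36.1% of all genes on the positive side. The median was −0.069, close to that of all genes, and 0 had an unadjusted p under 0.05. Kcnip4, an auxiliary subunit of Kcnd2 channels, read 4.91 and 5.12 in control and 4.79 and 4.72 in KO, a difference of −0.26 (SE 0.12; limma adjusted p 0.426). Both KO arrays were lower. That held for 7 of the 16 partners, against 32.1% of all genes, and both were higher for 2, against 13.8%.

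Markers of the other cells in the tissue were read on the same arrays, because a bulk signal for granule genes is relative to them. All 8 choroid plexus genes were measured, with the sums given above. Red blood cell genes (5 of 6) summed to 239.6 and 353.6 in control and 238 and 235.9 in KO. For oligodendrocytes (8 of 8) the sums were 445.5 and 423 in control and 367.7 and 415.8 in KO, and for astrocytes and Bergmann glia (8 of 8) they were 235.4 and 228.6 in control and 197.1 and 203.6 in KO. Purkinje cell genes (8 of 8) summed to 787 and 804 in control and 747.5 and 753.2 in KO, and microglia (8 of 8) to 78.6 and 83.2 in control and 75.8 and 76 in KO. Most of the microglia sum came from 1 Itgam probe, which read 5.93 and 6.05 in control and 5.96 and 5.91 in KO. The other Itgam probe read −4.97 and −5.71 in control and −6.02 and −5.65 in KO. Of the 8 microglia genes 0 were on the positive side, against 36.1% of all genes, and their median difference was −0.21. Inhibitory interneurons (7 of 8) summed to 106.8 and 104.8 in control and 96.8 and 88.6 in KO. The same sums were 641.9 and 697.1 in control and 672.7 and 689.7 in KO for the maturation and synaptic granule genes, where the groups overlapped. The part of these other cells in the granule gene values was not tested.

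**Figure D4:**
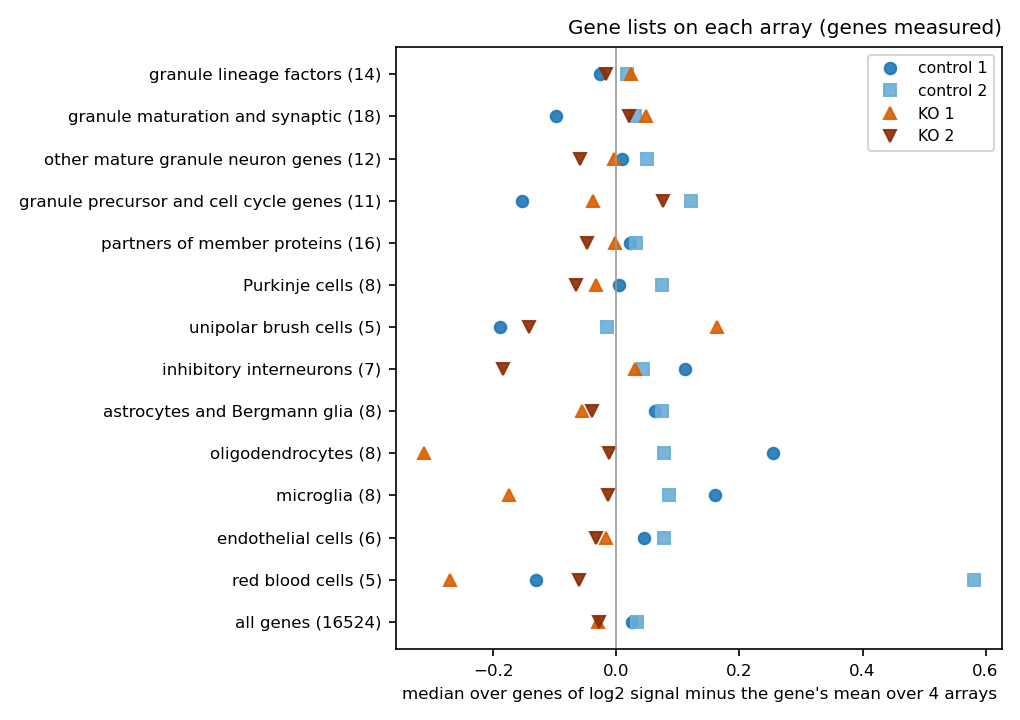
Median over the genes of each list of the log2 signal minus the gene's own mean over the 4 arrays (x axis), for each array and list (y axis, number of genes measured in brackets). Both granule lists of members have KO arrays among or near the controls, with control replicate 1 lowest for maturation and synaptic genes, while oligodendrocyte and microglia genes are lowest on KO replicate 1; the choroid plexus, forebrain and hindbrain lists are not drawn.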

How the data were processed

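Total RNA of 4 cerebellum samples was labelled with Cy3 from 150 ng each, per the labels' protocols, and hybridised to one-colour Agilent arrays on 1 slide, with groups and replicate numbers taken from the titles. The deposited scanner files give intensity after background subtraction within each array and no scaling between them. Their headers name version 12.1.1.1 of Agilent's Feature Extraction, and the submitters' processing notes name 10.7.1.1. Log2 values in the authors' deposited table had column medians of 0.0071, −0.19, −0.16 and −0.22 (control 1 and 2, KO 1 and 2). Their deviations from each probe's mean followed the scaled scanner values with slope 1 and correlation 1, so scale and direction are known from the values, and the centring used is unstated. Other columns used, per the file headers, are flags of outlier spots and of signal well above background. The build behind the authors' probe annotation is not given in the sources used here.

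Control spots and outlier-flagged spots were left out, spots of 1 probe were averaged as log2, and the 75th percentile was taken off per array. A probe was kept if well above background on both samples of a group (37516 of 56605). RefSeq accessions named 32994 of 35886 probes through a table of assembly GRCm38.p6; 16524 genes had a kept probe. The test was limma 3.58.1 under R 4.3.3 (lmFit, eBayes, 4.35 total degrees of freedom) with Benjamini-Hochberg adjustment over all kept probes, and tested on simulated data. With 2 arrays a group, the lowest two-sided permutation p is 0.333. Between 66.4% and 69.4% of spots were well above background, 0 spots were saturated, and the number of arrays limits the precision. A patch of raised local background, over 1.5 times the array median with a reach of 2 rows or columns, covered 1350 spots of control 1, 32 of control 2 and 0 of KO 1 and KO 2. Groups lie at different positions of the slide, which cannot be told apart from genotype.

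The member genes and gene lists were chosen with earlier results of these data known. All 32 members are named; genes of other lists were named at an unadjusted p under 0.05, with Gabra6, Gabrd, Mki67, Kcnip4, Eomes, Car8 and absent regional markers added for their roles after their values were seen. The motifs were also chosen then. Some genes of these lists are not reported here.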

Additional observations from a re-analysis of the deposited data

How the results depend on the processing

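The count of 0 member genes past the adjusted threshold held under all 16 alternatives, each array left out included. With the replicate number as a block it stayed 0, with a lowest limma adjusted p of 0.283, and the block changed no call of a member. The labels do not say that the numbers pair the samples, and with 2 pairs the deviations of same-numbered samples correlated at 0.12. Over all probes the count of 0 became 1 under quantile normalization, under the median of probes above background, under spike-in scaling and without patch spots, 2 under normexp and 4 under an intensity trend, and ran from 0 to 98 with an array left out, 98 being without control replicate 2. The cause was not tested. The lineage median of −0.0032 became 0.059 under quantile normalization, 0.085 under spike-in scaling and 0.050 when a gene's probes were averaged, and −0.0054 to 0.055 with an array left out. The maturation median became 0.17 under spike-in scaling and 0.020 to 0.15 with an array left out. Spike-in scaling moved the median of all probes from −0.028 to 0.060. Among probes with an unadjusted p under 0.05, KO was higher in 63% and, under spike-in scaling, in 84%. Normexp used the median spot signal.

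Of 32 genes, 16 kept their direction throughout, Meis1 and Calb2 among them. Small differences turned: under spike-in scaling Zic1 (0.069), Neurod1 (0.061), Nfix (0.028), Mef2a (0.069), Mef2d (0.058), Cbln3 (0.038), Cntn1 (0.038), Cntn2 (0.028) and Slc17a7 (0.048); under quantile normalization Zic1 (0.061), Neurod1 (0.035), Mef2a (0.033) and Cntn1 (0.033); under normexp Nfia (−0.020). The mean of all probes gave 0.048 for Mef2a, 0.093 for Mef2d, −0.55 for Rims1 and −0.52 for Cadps2; the last 2 include the patch probes. With an array left out, ranges that crossed 0 were −0.085 to 0.048 for Zic1, −0.11 to 0.052 for Neurod1, −0.064 to 0.088 for Nfia, −0.018 to 0.31 for Nfib, −0.086 to 0.049 for Mef2a, −0.20 to 0.14 for Mef2d, −0.18 to 0.076 for Cbln3, −0.12 to 0.53 for Bdnf, −0.061 to 0.23 for Fat2, −0.097 to 0.018 for Slc17a7, −0.17 to 0.33 for Rims1, −0.045 to 0.18 for Chn2 and −4.70 to 0.37 for the Cadps2 patch probe. That probe passed the threshold without control replicate 2 (limma adjusted p 0.0233). No value could be given for the brightest Cadps2 probe without patch spots.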

Other observations

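Car8, a Purkinje cell gene, was low on KO replicate 1 alone on both of its probes. They read 3.99 and 3.13 in control and 1.02 and 3.78 in KO, and 4.06 and 3.34 in control and 0.14 and 4.06 in KO. KO replicate 1 was also the array on which Bdnf, Rims1 and Eomes were highest.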
